A study of Homo sapiens with 31 samples.

Results

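The genes described here are the 41 subunits, isoforms and close regulators of the translation initiation factors that appear by symbol among the 56269 gene names of the deposited count files. They were taken by name (EIF1 to EIF6, the EIF2, EIF2B and EIF3 subunits, the cap-binding EIF4 proteins with their 4E-binding proteins, and EIF5A), and all 41 passed the filter on low counts that left 15787 genes for testing. Poly(A) RNA was sequenced from MCF10A, an immortalised but not malignant line of human breast epithelial cells that stops dividing when growth factors are removed and re-enters the cell cycle when they are returned. Cells were held for 2 to 3 days without serum, EGF and insulin and were then given full growth medium. The released cells received either 0.1% DMSO, the solvent, or palbociclib at 1 µM, which blocks CDK4 and CDK6, the kinases that cyclin D activates. All 11 groups therefore share the same line and the same starvation.

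The starved group at 0 h, the DMSO groups at 3, 6, 9, 12 and 15 h and the palbociclib groups at 9, 12 and 15 h held 3 libraries each. The DMSO and palbociclib groups at 24 h held 2 each, which gives 31 libraries. Nothing in the labels says that the libraries of a group were grown apart, and the p-values given here therefore reflect the library-to-library spread, which may be technical. As all cells are of 1 line, nothing here speaks for breast epithelium at large.

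Translation initiation brings the ribosome to the start codon of an mRNA. The complex eIF4F (cap-binding EIF4E, scaffold EIF4G and helicase EIF4A) opens the capped end, eIF3 holds the small ribosomal subunit, and eIF2 carries the initiator tRNA under GTP. EIF1 and EIF1AX keep scanning accurate, EIF5 and EIF5B complete start codon recognition and subunit joining, and eIF2B recharges eIF2. In growing cells the pathway is controlled largely at the protein level, through mTOR and the 4E-binding proteins, which mRNA counts do not measure.

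Library totals ran from 10342358 to 20878364 assigned counts, and the 41 genes took 1.05% to 1.19% of them. Summed CPM (counts scaled to a common library size with trimmed-mean factors) of 8 basal breast markers were 10264 to 17301, against 0.193 to 5.97 for 5 blood and endothelial markers. Of the 4 luminal and the 4 fibroblast markers, 2 each stayed under 1 CPM in every library, and the sums were 96.4 to 690 and 15.3 to 85.5 CPM. Release and drug were visible in single check genes. MYC rose by 1.29 ± 0.11 (log2 fold change ± standard error) at 3 h, and the E2F target CCNA2 fell under palbociclib by 4.38 ± 0.16 at 15 h. In the starved, 3 h and 6 h groups the 41 genes sat on average 0.061 to 0.085 (log2 CPM) above the group mean in replicate 2 and 0.050 to 0.070 below it in replicate 3. Of the 174 changes of single genes recomputed under the alternatives, 174 kept their direction and their side of the test threshold with the replicate number as a block. With the main axis within groups as a covariate 173 did. The axis was computed from deviations from the group means, and the replicate numbers are nearly balanced over the groups. Both settings could therefore move fold changes only little and are weak checks. Fewer of the 174 changes kept both under other alternatives, 150 without the filter on low counts and 162 with scaling by library totals alone. Fits on each contrast's own libraries kept 161. Those without the 5 replicate 3 libraries of DMSO 24 h and the palbociclib groups kept 157, and left 1 library per group at 24 h. On the main axis within groups these 5 deviated in the opposite direction to replicate 3 of the other groups.

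Release changed most of the initiation factor genes, in both directions and within most roles. At 3 h, 18 of 41 rose and 10 fell, by edgeR's quasi-likelihood test with Benjamini-Hochberg adjustment over all 15787 genes at an adjusted p below 0.05. Of all genes tested, 62.2% were called in either direction at that time, 27.8% higher and 34.4% lower. At 6 h, 19 rose and 12 fell, beside 73.5% of all genes called (34.1% higher, 39.5% lower). At 9 h (75.1% of all genes called) and 12 h (75.7%) alike, 22 rose and 13 fell. The later counts were 22 and 15 by 15 h (76.7%), then 22 and 16 by 24 h (75.6% called, 36.7% higher and 38.9% lower). The share of members called was near that of all genes at 3 and 6 h and above it from 9 h on, when 6, 6, 4 and 3 of the 41 were not called at 9, 12, 15 and 24 h. The difference in share was not tested. At each of the 6 times more of the called members were higher than lower.

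The median log2 fold change of the 41 genes against 0 h went from 0.13 (3 h) through 0.15 (6 h) to 0.31 (24 h), while the median of all tested genes was -0.10, -0.08 and -0.09. At least 2-fold higher were 4 members at 3 h, 10 at 6 h and 10 at 24 h, beside 10.6%, 13.8% and 16.4% of all genes. At least 2-fold lower were 0, 0 and 4 of them, beside 9.42%, 18.5% and 22% of all genes. Across the 6 DMSO times, 15 genes were higher every time, 7 were lower every time, 5 were called both ways and EIF3C was never called. The same counts over all genes were not made. At each time, 62.2% to 76.7% of all genes were called. Scaling by library totals alone moved the median of all genes at 3 h from -0.10 to -0.27, and 13 members were then higher and 15 lower. A fit on the 6 libraries of the 3 h contrast alone called 3 lower (EIF4A2, EIF4B and EIF4EBP1), and without the filter on low counts 5 were called lower.

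**Figure D1:**
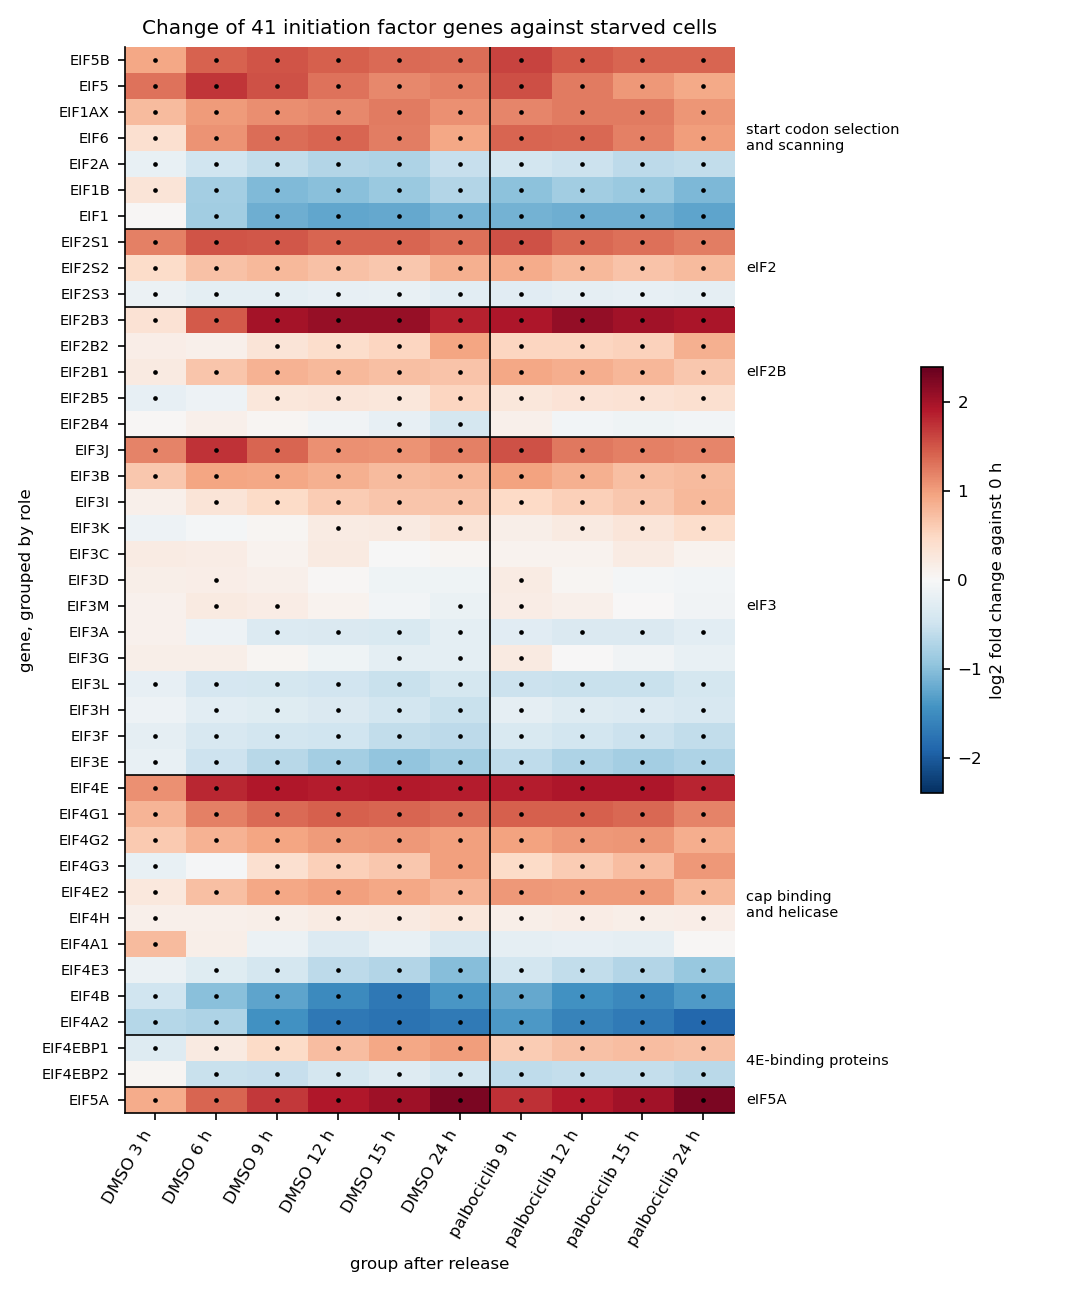
Log2 fold change of each of the 41 genes (rows, grouped by role and sorted by the 24 h value) against starved cells, in the 6 DMSO and 4 palbociclib groups (columns). Red is higher, blue is lower and a dot marks an adjusted p below 0.05. EIF4E, EIF2B3 and EIF5A are among the darkest red rows and EIF4A2 and EIF4B the darkest blue, in the DMSO and in the palbociclib columns.

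EIF4E, the cap-binding subunit through which mTOR signalling reaches initiation, gave one of the largest rises. It lies on chromosome 4 from 98871684 to 98930637 on the minus strand (GRCh38, GENCODE gene span). Its level was 27.7, 31.7 and 25.4 CPM in the starved libraries, 53.2, 70.6 and 56.6 CPM at 3 h, 96.8, 108 and 91.3 CPM at 6 h and 100 and 109 CPM at DMSO 24 h. Every released library was above every starved one, and the DMSO libraries from 9 h on lay between 95.6 and 118 CPM. The 3 h log2 fold change was 1.10 ± 0.098 (adjusted p = 2.5e-11), and it reached 1.80 ± 0.096 by 6 h and 1.89 ± 0.10 by 24 h.

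The related cap-binding proteins differed from EIF4E and from each other. EIF4E2, which binds the cap without eIF4G and acts in repression of mRNAs, gave 45.8, 48.3 and 43.8 CPM at 0 h and 80.6 and 81.5 CPM at 24 h, a log2 rise of 0.82 ± 0.081 (adjusted p = 1.5e-10). EIF4E3, an atypical cap-binding paralogue, fell from 37.9, 40.2 and 36.1 CPM to 18.8 and 18.9 CPM (-1.01 ± 0.081, adjusted p = 1.2e-12). The released and starved libraries did not overlap for either gene at 24 h. EIF4E2 shares 24.2% of its exon bases with other genes. On a per-length scale (RPKM, CPM per kilobase of all annotated exons), the ratio of EIF4E to EIF4E3 was 0.568 ± 0.033 (SD, n = 3) at 0 h, 2.44 ± 0.18 at 6 h and 4.26 ± 0.21 (n = 2) at DMSO 24 h. In palbociclib at 24 h it was 3.77 ± 0.27 (n = 2), with both libraries below those of DMSO. EIF4E to EIF4E2 went from 0.313 ± 0.019 to 0.659 ± 0.033. Union exon length lowers the RPKM of genes with long rarely used exons, EIF4E among them, so the ratios are to be read over time.

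The scaffold genes rose on different schedules. EIF4G1, the main scaffold that ties EIF4E, EIF4A and eIF3 together (chromosome 3, 184314495 to 184335358, plus strand), gave 515, 529 and 527 CPM at 0 h, 875, 993 and 894 CPM at 3 h and 1342 and 1316 CPM at 24 h. The starved libraries were all lowest, and the log2 changes were 0.81 ± 0.052 at 3 h, 1.21 ± 0.052 at 6 h and 1.34 ± 0.057 at 24 h (adjusted p = 1.5e-19). EIF4G2, which lacks the EIF4E-binding part and serves non-canonical initiation, rose by 0.62 ± 0.052 at 3 h and 0.99 ± 0.057 at 24 h. EIF4G3, the second full-length scaffold, gave 111, 98.9 and 106 CPM at 0 h, 93.4, 92.4 and 93 CPM at 3 h and 213 and 203 CPM at 24 h. It was thus lower first (-0.18 ± 0.058, adjusted p = 0.0078) and higher from 9 h on (0.98 ± 0.062 at 24 h). The 3 h call of EIF4G3 was lost in the fit on the contrast's own libraries, without the filter on low counts and without starved replicate 1. The per-length ratio of EIF4G1 to EIF4G3 was 5.79 ± 0.41 at 0 h, 13.7 ± 0.47 at 6 h and 7.43 ± 0.14 at DMSO 24 h. Under palbociclib it was 9.06 ± 0.042 at 15 h, beside 9.73 ± 0.22 in DMSO, and 6.45 ± 0.065 at 24 h, and the libraries of the treatments did not overlap at either time. The ratios were described and not tested.

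A helicase gene, EIF4A2, and a helicase cofactor gene, EIF4B, went the other way. EIF4A2, the second eIF4A helicase (chromosome 3, 186783205 to 186789900, plus strand), gave 652, 666 and 624 CPM at 0 h, 383, 425 and 403 CPM at 3 h, 375, 385 and 405 CPM at 6 h and 190 and 210 CPM at 24 h. The fall came in steps, -0.68 ± 0.058 at 3 h and -0.74 ± 0.058 at 6 h, and then a further -1.04 ± 0.060 between 6 and 15 h (adjusted p = 1.2e-15), reaching -1.69 ± 0.069 at 24 h. EIF4B, the helicase cofactor phosphorylated by S6 kinase (chromosome 12, 53006158 to 53042209, plus strand), fell from 954, 1047 and 959 CPM to 700, 705 and 720 CPM at 3 h and 293, 293 and 319 CPM at 15 h. It was 366 and 381 CPM at 24 h, above every 15 h library (0.31 ± 0.061 against 15 h, adjusted p = 0.00022) and still -1.40 ± 0.064 against 0 h. Of EIF4A2's exon bases 17.9% are shared with other annotated genes, and of EIF4B's 11.9%, where reads were not counted.

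EIF4H, the smaller cofactor related to EIF4B, rose by little, from 353, 379 and 342 CPM at 0 h to 429 and 439 CPM at 24 h (0.28 ± 0.059, adjusted p = 0.00010). Its rise at 3 h (0.13 ± 0.053) turned to -0.04 when libraries were scaled by their totals alone. EIF4A1, the major helicase gene, could not be followed well. Of its exon bases 48.6% are shared with the readthrough gene SENP3-EIF4A1 and other features, only 4003 counts were assigned to it over all libraries, and its CPM was 9.89, 6 and 10.3 at 0 h and 16.8, 11.9 and 16.2 at 3 h. The 3 h difference was 0.77 ± 0.18 (adjusted p = 0.00042) and that at 24 h was -0.38 ± 0.22 (adjusted p = 0.11).

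The 4E-binding proteins, which hold EIF4E away from EIF4G until mTOR phosphorylates them, moved in opposite directions against 0 h from 6 h on. Between 6 and 15 h in DMSO both were called higher, EIF4EBP1 by 0.72 and EIF4EBP2 by 0.22 on the log2 scale. EIF4EBP1 gave 30.1, 35.7 and 32.5 CPM at 0 h, 24.8, 28 and 25.8 CPM at 3 h and 60.9 and 70.4 CPM at DMSO 24 h. All 3 h libraries were below the starved ones (-0.32 ± 0.091, adjusted p = 0.0033) and both 24 h libraries were above them (1.01 ± 0.092, adjusted p = 2.3e-11). EIF4EBP2 gave 271, 264 and 277 CPM at 0 h, 275, 281 and 284 CPM at 3 h and 190, 179 and 193 CPM at 6 h. It was not called at 3 h (0.05 ± 0.050) and was lower from 6 h on (-0.54 ± 0.050, adjusted p = 4.0e-11). Per length, EIF4EBP2 stood at 1.23 ± 0.12 times EIF4EBP1 in starved cells and at 0.451 ± 0.060 times in DMSO 24 h cells.

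**Figure D2:**
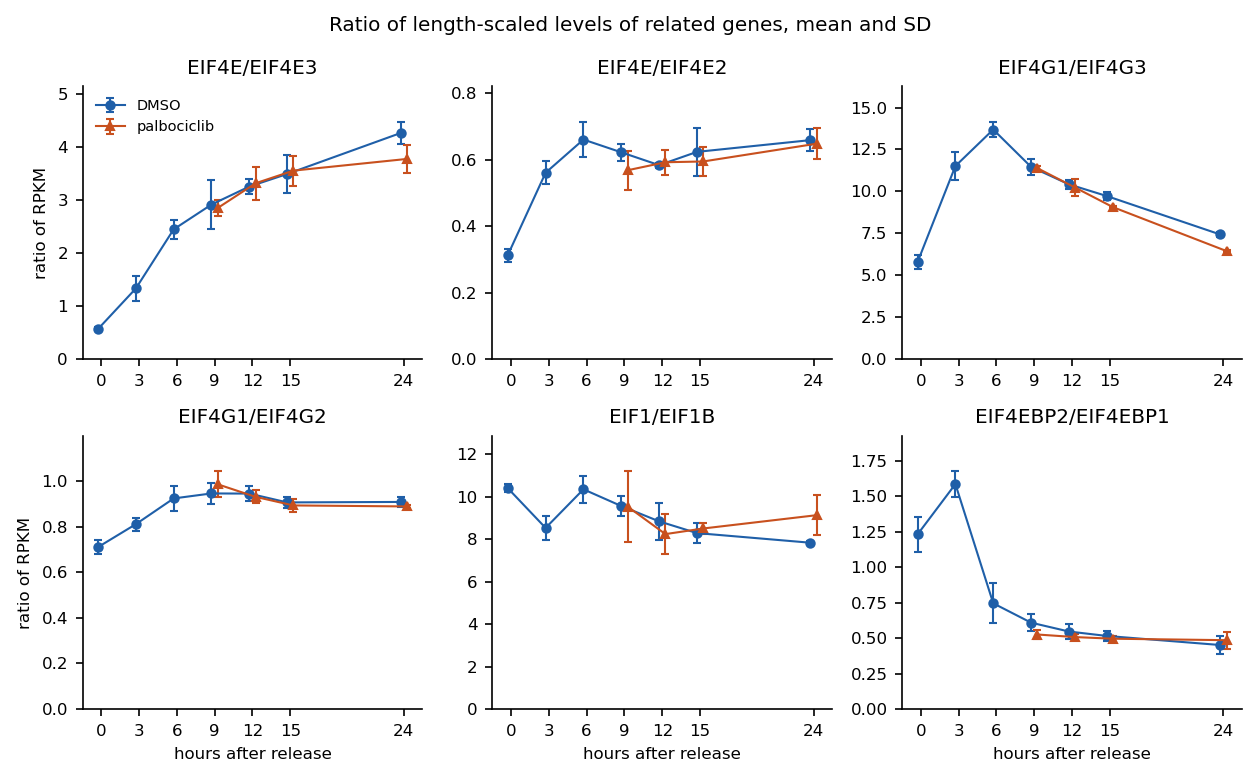
Ratio of RPKM of related genes (y axes, each from 0) over hours after release, as mean and SD over the 3 libraries of a group (2 at 24 h), for DMSO (blue circles, with the starved group at 0 h) and palbociclib (orange triangles). The EIF4E to EIF4E3 ratio went from 0.568 to 4.26 in DMSO and was lower under palbociclib at 24 h. The EIF4G1 to EIF4G3 ratio peaked at 13.7 and was lower under palbociclib at 15 and 24 h. The EIF1 to EIF1B ratio was higher under palbociclib at 24 h (8.47 and 9.81 against 7.77 and 7.91 in DMSO). These differences were picked by eye, rest on 2 libraries per group at 24 h and were not tested.

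The eIF2 subunits, which form 1 complex with a copy of each, did not move together. EIF2S1, the alpha subunit whose phosphorylation shuts initiation down under stress (chromosome 14, 67359997 to 67386516, plus strand), gave 77.5, 92.8 and 70 CPM at 0 h, 178, 206 and 171 CPM at 3 h and 189 and 209 CPM at 24 h. Starved and released libraries did not overlap, and the rise was 1.21 ± 0.076 at 3 h (adjusted p = 5.3e-15) and 1.31 ± 0.082 at 24 h. EIF2S2, the beta subunit, rose by 0.44 ± 0.063 and 0.86 ± 0.068 at the same times. EIF2S3, the gamma subunit that binds GTP and the initiator tRNA, went from 412, 426 and 404 CPM to 345 and 351 CPM at 24 h. All its 24 h libraries were lower, by little (-0.25 ± 0.048, adjusted p = 2.8e-05).

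Of the 5 eIF2B subunits, EIF2B3 changed most. This gamma subunit, part of the catalytic arm of the exchange factor, gave 12.4, 12.8 and 11.5 CPM at 0 h, 14.6, 17.5 and 14.1 CPM at 3 h and 45.8, 52.4 and 48.6 CPM at 9 h. The groups were separate at every time, and the log2 change was 0.35 ± 0.092 at 3 h, 1.47 ± 0.083 at 6 h and 2.00 ± 0.081 at 9 h. EIF2B5, the catalytic epsilon subunit, was lower at 3 h (-0.21 ± 0.061, a call lost in the fit on the contrast's own libraries and without the filter) and higher at 24 h (0.52 ± 0.064, adjusted p = 1.2e-08). The regulatory subunits EIF2B1 and EIF2B2 rose by 0.68 ± 0.078 and 0.94 ± 0.090 at 24 h. EIF2B4, the delta subunit, was the exception, with 42.2, 42.7 and 38 CPM at 0 h and 29 and 31.8 CPM at DMSO 24 h (-0.43 ± 0.071, adjusted p = 2.7e-06). Shared exon bases were 23.6% for EIF2B2, 15.6% for EIF2B1 and 10.2% for EIF2B3.

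The 13 eIF3 subunits split. At 24 h, 4 rose, 7 fell and 2 did not pass the test, beside 36.7% of all genes higher and 38.9% lower. The difference from all genes was not tested. The log2 changes of the 13 had a median of -0.16 and a range from -0.83 to 1.21. EIF3J, the loosely held subunit at the mRNA channel (chromosome 15, 44537057 to 44563029, plus strand), gave 62.7, 72 and 60.1 CPM at 0 h, 141, 174 and 129 CPM at 3 h, 226, 222 and 199 CPM at 6 h and 131, 144 and 133 CPM at 15 h. It peaked at 6 h (1.73 ± 0.083, adjusted p = 3.8e-18) and then fell by 0.66 ± 0.080 to 15 h. EIF3B, the scaffold of a side module with EIF3G and EIF3I, rose by 0.94 ± 0.054 at 6 h and 0.80 ± 0.059 at 24 h. EIF3I, a WD-repeat partner of EIF3B, rose later (0.66 ± 0.075 at 24 h).

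The ring of PCI and MPN domain subunits that forms the body of the complex holds EIF3A, EIF3C, EIF3E, EIF3F, EIF3H, EIF3K, EIF3L and EIF3M, a grouping looked at after the values were seen. At 24 h EIF3K was higher, EIF3C was not called and the others of the ring were lower. EIF3E gave 955, 1012 and 879 CPM at 0 h and 527 and 538 CPM at 24 h, with no overlap (-0.83 ± 0.068, adjusted p = 1.8e-12). EIF3F fell by 0.62 ± 0.062, EIF3H by 0.53 ± 0.076 and EIF3L by 0.41 ± 0.065. EIF3A, the largest subunit, was at -0.23 ± 0.063 and EIF3G at -0.24 ± 0.096. EIF3M was higher at 6 h (0.21 ± 0.060) and lower at 24 h (-0.16 ± 0.068), EIF3K rose by 0.31 ± 0.075 at 24 h, and EIF3D, which can bind the cap itself, passed at 6 h only (0.16 ± 0.065). The 24 h calls of EIF3G and EIF3M were each lost when any of 3 or more single libraries was left out, among them DMSO 24 h replicate 1 for both genes. They were also lost with DESeq2 (adjusted p = 0.0675 and 0.104). The same held without the 5 replicate 3 libraries of DMSO 24 h and the palbociclib groups, which left 1 DMSO library at 24 h. That of EIF3M was lost with DESeq2 size factors, without the filter on low counts and in the fit on its own libraries as well. The EIF3D call was lost without 6 h replicate 2 or starved replicate 3, with library totals and without the filter. EIF3C drew 5417 counts in all beside a near-identical copy, EIF3CL, with 46, and its values are uncertain. EIF3L shares 51.8% of its exon bases with other genes.

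The genes of scanning and start codon choice also divided. EIF5, which makes eIF2 hydrolyse GTP at the start codon (chromosome 14, 103333544 to 103345025, plus strand), gave 165, 192 and 152 CPM at 0 h, 409, 458 and 383 CPM at 3 h, 569, 586 and 528 CPM at 6 h and 381, 377 and 378 CPM at 15 h. It peaked at 6 h (1.72 ± 0.066, adjusted p = 1.6e-20) and fell from there to 15 h by 0.57 ± 0.064. EIF5B, the GTPase of subunit joining, rose by 0.92 ± 0.088 at 3 h and 1.34 ± 0.096 at 24 h, and EIF1AX, which keeps the small subunit open for scanning, by 0.76 ± 0.084 and 1.10 ± 0.091. EIF6, which keeps large subunits from joining too early, rose by 0.38 ± 0.082 at 3 h and 1.09 ± 0.081 at 6 h. EIF6 and EIF5B share 17.4% and 10.8% of their exon bases with other genes.

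EIF1, the guardian of start codon accuracy (chromosome 17, 41688885 to 41692668, plus strand), gave 1034, 1148 and 1033 CPM at 0 h, 1087, 1106 and 1078 CPM at 3 h, 581, 652 and 567 CPM at 6 h and 474 and 513 CPM at 24 h. The 3 h libraries overlapped the starved ones (0.03 ± 0.063, adjusted p = 0.75), and from 6 h on all were lower (-0.84 ± 0.063 at 6 h, -1.12 ± 0.073 at 24 h). EIF1B, its paralogue, was higher at 3 h (0.31 ± 0.081) and lower at 6 h (-0.82 ± 0.085), and its 3 h call, like that of EIF2B3, was lost with library totals. EIF2A, a non-canonical initiator tRNA carrier unrelated to eIF2, fell by 0.48 ± 0.054 at 6 h and 0.56 ± 0.061 at 24 h.

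EIF5A, named as an initiation factor and known for helping ribosomes through elongation and termination, had the largest change of the 41 genes at 24 h. It lies on chromosome 17 from 7306999 to 7312463 (plus strand). Its level was 112, 128 and 93.7 CPM at 0 h, 190, 252 and 171 CPM at 3 h, 284, 340 and 256 CPM at 6 h and 518 and 547 CPM at DMSO 24 h. No released library overlapped the starved group, and the log2 change was 0.88 ± 0.13 at 3 h, 1.40 ± 0.13 at 6 h and 2.26 ± 0.14 at 24 h (adjusted p = 2.3e-15). Replicate 2 was the highest library of EIF5A at all 3 times from 0 to 6 h. A copy, EIF5AL1, drew 929 counts in all beside 176212 for EIF5A, so reads that fit both could be missing.

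**Figure D3:**
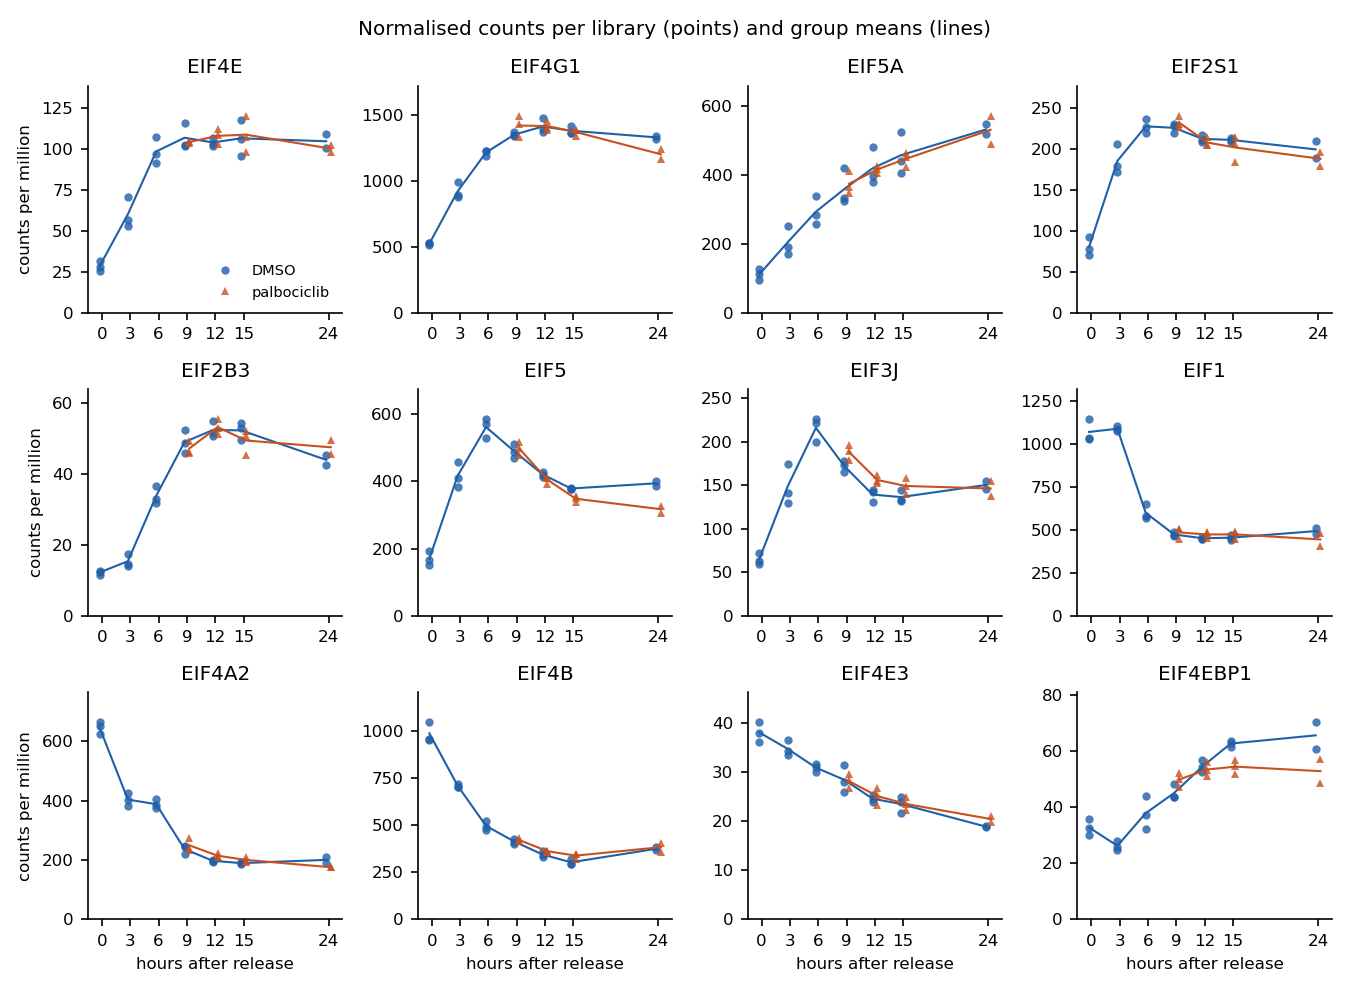
Normalised counts (CPM, y axes from 0) of 12 genes in each library over hours after release, with lines through the group means, for DMSO (blue circles, with the starved group at 0 h) and palbociclib (orange triangles). EIF4E, EIF4G1, EIF2S1 and EIF5A climbed and stayed up, EIF5 and EIF3J peaked at 6 h, and EIF1, EIF4A2, EIF4B and EIF4E3 fell.

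Members also changed from one time to the next. From 3 to 6 h, 18 genes rose further and 12 fell (57.6% of all genes called), from 6 to 15 h 13 rose and 16 fell (54.9%), and from 15 to 24 h 6 rose and 4 fell (29.6%). The 6 that rose late were EIF4G3, EIF2B2, EIF2B5, EIF4B, EIF2A and EIF2S2, and the 4 that fell were EIF2B3, EIF2B4, EIF4E3 and EIF6, all by less than 0.5 on the log2 scale. Without DMSO 24 h replicate 1 the number of late falls was 1 (EIF4E3), and without DMSO 24 h replicate 3 it was 2 (EIF2B4 and EIF4E3).

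Levels set side by side per length showed how the order of the factors shifted. In starved cells EIF1 stood highest at 296 ± 18 RPKM (SD, n = 3), followed by EIF4B at 161 ± 8.6 and EIF3E at 158 ± 11, which did not differ beyond their spread. EIF2S3 and EIF3A came next at 119 ± 3.3 and 119 ± 7.0. At DMSO 24 h EIF5A led with 189 ± 7.3 RPKM (n = 2), ahead of EIF4G2 at 177 ± 1.7 and EIF4G1 at 161 ± 2.3, and EIF1, EIF4H and EIF3I were level at 136 ± 7.6, 136 ± 2.2 and 136 ± 3.3. EIF4E read low, at 2.01 ± 0.22 RPKM in starved cells and 7.45 ± 0.43 at 24 h, but its union exon length of 14067 nt lowers these values. EIF4A1 and EIF3C, whose values are uncertain, were lowest at 24 h. Shared exon bases add to a gene's length while their reads were not counted. The order between genes is therefore not one of abundance, and the levels are to be read over time.

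Some mRNAs of the translation machinery begin with a C and a run of pyrimidines right at the cap, the 5′ terminal oligopyrimidine, through which mTOR controls their translation. Annotated starts in RefSeq promoter windows (GRCh38.p14, 250 bases before to 50 after the start) were found for 34 of the 41 genes. EIF2S2, EIF3A, EIF3E, EIF3G, EIF3H, EIF3L and EIF4EBP1 had no entry. A start was counted when a C at the annotated first base was followed by at least 4 pyrimidines, a rule chosen after the values and the sequences had been seen. The 8 genes that met it are shown because most of them are among those that fell. The 25 bases run 5′ to 3′ from 5 before the start to 20 from it, with the pyrimidine run in capitals.
EIF2A (chr3:150546782-150546806, plus strand): ggtttCTCTTTCCgggacaacatgg
EIF2S3 (chrX:24054951-24054975, plus strand): ccttcCTCTTTTggcaacatggcgg
EIF3D (chr22:36529147-36529171, minus strand): gtttcCTCTTTTCCTggtttctcaa
EIF3F (chr11:7987332-7987356, plus strand): gcctcCTTCTTTCTCgacaagatgg
EIF3K (chr19:38619183-38619207, plus strand): accacCTCTTCCTgttcccgtcctt
EIF3M (chr11:32583826-32583850, plus strand): gttccCTTTTCCggtcggcgtggtc
EIF4A2 (chr3:186783572-186783596, plus strand): gctgtCTTTTCagtcgggcgctgag
EIF4B (chr12:53006451-53006475, plus strand): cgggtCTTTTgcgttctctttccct

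For contrast, 3 starts without such a run are shown, those of EIF4E and EIF2S1, which rose, and of EIF1, which fell. They cover the same window and hold no capitals.
EIF4E (chr4:98929114-98929138, minus strand): cggttgtgcgatcagatcgatctaa
EIF2S1 (chr14:67360323-67360347, plus strand): tccgcatgcgcggtggagtgagcga
EIF1 (chr17:41688880-41688904, plus strand): cctctgccccagtcactgagccgcc

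At 24 h, 1 of the 8 genes with a pyrimidine start rose (EIF3K) and 6 fell, with a median log2 change of -0.40. Of the 26 matched genes without it, 19 rose and 5 fell (EIF1, EIF1B, EIF2B4, EIF4E3 and EIF4EBP2), with a median of 0.88. At 3 h the counts were 0 higher and 5 lower with it, and 17 and 2 without. Among all 10498 tested genes with a promoter entry, 746 (7.11%) had such a start. At 24 h 222 of these rose and 378 fell, with a median of -0.25 against 0.05 for the other 9752 genes. At 3 h 15.7% of the 746 rose and 52.8% fell, beside 31.2% and 35.7% of the 9752. Because the rule was set on these genes, the difference between the member sets is a description, and no test was made. Allowing the run to begin up to 3 bases either side of the annotated start raised the number of genes to 13, of which 5 rose and 7 fell at 24 h (median -0.16). Where transcription began in these cells was not measured.

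**Figure D4:**
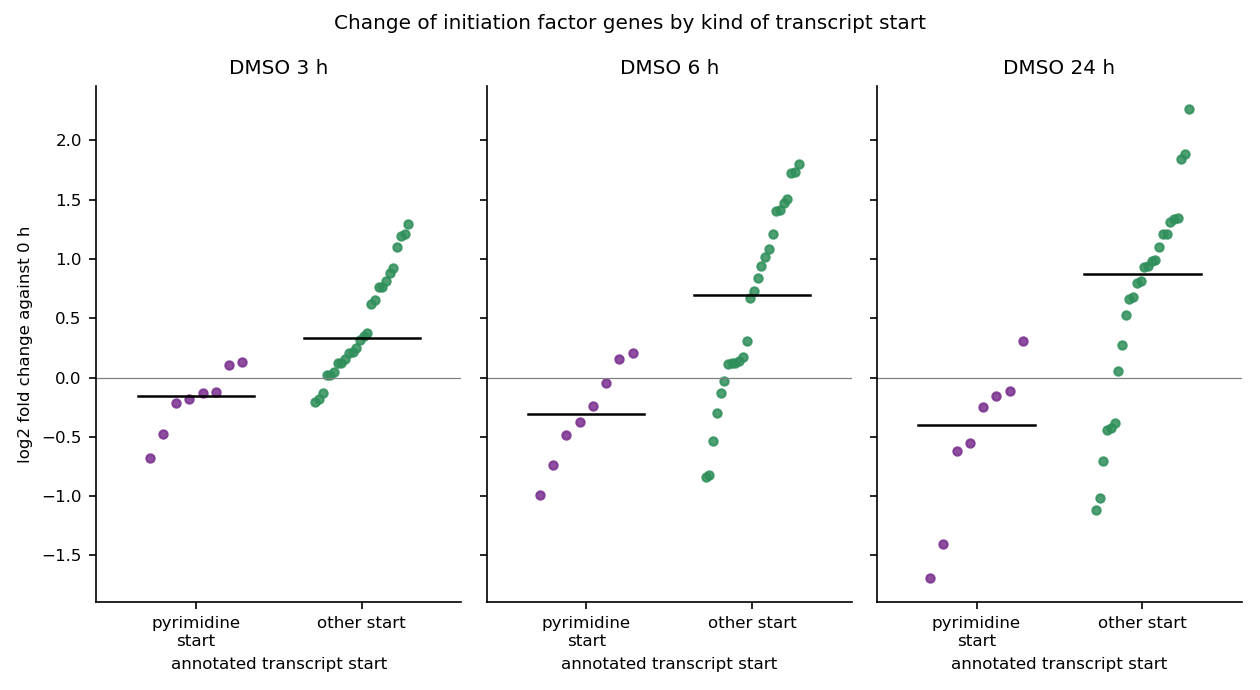
Log2 fold change against starved cells (y axis) at DMSO 3, 6 and 24 h for the 8 genes with an annotated pyrimidine start (purple) and the 26 with another start (green), with each gene a point and the median a black line. At 24 h the medians are -0.40 and 0.88, and the highest purple point is EIF3K at 0.31.

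The hexamer CACGTG, an E-box to which MYC and related factors can bind, was searched in the same 300-base windows. It reads the same on both strands. It was found for 8 of the 34 genes, EIF1B, EIF2B3, EIF3F, EIF3K, EIF4B, EIF4E, EIF4G1 and EIF4H, and in the windows of 12.3% of all tested genes with an entry. EIF4E and EIF4G1, both among the genes that rose most, each held it at 2 places, shown in 30 bases with the hexamer in capitals.
EIF4E upstream copy (chr4:98929341-98929370, minus strand): ctacccatcggcCACGTGaccagtcctttt
EIF4E downstream copy (chr4:98929188-98929217, minus strand): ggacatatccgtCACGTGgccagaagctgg
EIF4G1 upstream copy (chr3:184314450-184314479, plus strand): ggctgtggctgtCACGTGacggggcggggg
EIF4G1 downstream copy (chr3:184314527-184314556, plus strand): ccctgcgccggtCACGTGggggcgccggct

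The 8 genes with the hexamer included both risers and fallers. At 24 h, 5 rose and 3 fell (EIF1B, EIF3F and EIF4B), with a median of 0.29, and of the 26 without it 15 rose and 8 fell, with a median of 0.67. At 3 h the counts were 5 and 2 with it and 12 and 5 without. Among all tested genes with an entry, 552 of the 1292 with the hexamer rose at 24 h (42.7%) and 489 fell. Of the 9206 without it 3847 rose (41.8%) and 3504 fell. At 3 h 32.7% of the 1292 rose and 38.8% fell, beside 29.8% and 36.6% of the 9206. A match is a description of the letters, and binding was not measured.

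Palbociclib, compared with DMSO at the same time, left the initiation factor genes close to the vehicle values. At 9 h, 0 of 41 were called by edgeR's quasi-likelihood test or by DESeq2 (1.18% of all genes were, by the former), with 2 genes at an unadjusted p below 0.05. At 12 h 1 was higher and 0 lower (5.63% of all genes called), at 15 h 0 were higher and 1 lower (10.9%), and at 24 h 1 was higher and 4 lower (18%, of which 5.76% higher and 12.3% lower). Unadjusted p-values below 0.05 numbered 3, 5 and 7 at these times, and DESeq2 called the same numbers except for 1 higher at 15 h, EIF4B. The largest difference of any member in either direction was 0.21, 0.19, 0.26 and 0.40 at the 4 times, the last being the uncertain EIF4A1. Against starved cells the palbociclib groups had 24 members higher and 13 lower at 9 h (75.7% of all genes called), and 22 and 13 at 12 h (75.4%), 15 h (75%) and 24 h (71.1%). The comparisons with starved cells share those 3 libraries with the DMSO comparisons.

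The 5 genes called at 24 h changed by less than 0.5 on the log2 scale. EIF2B4 gave 29 and 31.8 CPM in DMSO and 39 and 39.4 CPM in palbociclib, with both palbociclib libraries higher (0.37 ± 0.079, adjusted p = 0.00090). EIF5 gave 401 and 387 CPM in DMSO and 307 and 327 CPM in palbociclib (-0.31 ± 0.079, adjusted p = 0.0045). EIF1B gave 32.2 and 34.2 CPM against 25.5 and 25.9 CPM (-0.37 ± 0.11, adjusted p = 0.017). No library of one treatment lay within the range of the other for these genes, but the groups hold 2 libraries each. Of all members, 6 lay wholly above and 10 wholly below DMSO at 24 h, while 5 were called. The same count over all genes was not made. With 2 libraries per group such separation often arises without any difference, so these counts are not read as an effect of the drug.

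The 4E-binding proteins were lower under the drug at the late times. EIF4EBP2 gave 227, 203 and 225 CPM in DMSO and 180, 182 and 185 CPM in palbociclib at 15 h, with no overlap (-0.26 ± 0.050, adjusted p = 0.00033). At 24 h it was 203 and 195 CPM against 173 and 172 CPM (-0.21 ± 0.062, adjusted p = 0.016). EIF4EBP1 gave 63.1, 63.5 and 61.6 CPM against 51.8, 56.8 and 54.9 CPM at 15 h, which did not pass the test (-0.20 ± 0.082, adjusted p = 0.13), and 60.9 and 70.4 CPM against 48.5 and 57.2 CPM at 24 h (-0.31 ± 0.10, adjusted p = 0.029). The 15 h call of EIF4EBP2 held when each of the 6 libraries was left out in turn. Its 24 h call was lost with library totals, without the filter and in the fit on own libraries, and that of EIF4EBP1 in the last of these. Of the 24 h calls, all 4 lower ones were lost without palbociclib replicate 1, 2 each stayed without either DMSO library, and the EIF2B4 call was lost without DMSO replicate 1.

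EIF2A at 12 h was the other call, with 125, 127 and 123 CPM in DMSO and 138, 148 and 141 CPM in palbociclib (0.19 ± 0.057, adjusted p = 0.030). It was lost when any library but palbociclib replicate 1 was left out. Of the genes with large changes on release, several were not called at 24 h. EIF4E was at -0.06 ± 0.11, EIF4G1 at -0.15 ± 0.063, EIF5A at 0.00 ± 0.15 and EIF4B at 0.03 ± 0.067. EIF5, with the largest rise of the 41 genes at 3 h, was called lower, at -0.31. Whether the drug effect at 15 h differed from that at 9 h, or that at 24 h from that at 15 h, was tested as an interaction. No member was called in either (4.05% and 2.98% of all genes were), with 2 and 5 at an unadjusted p below 0.05, and DESeq2 called 0 in both.

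**Figure D5:**
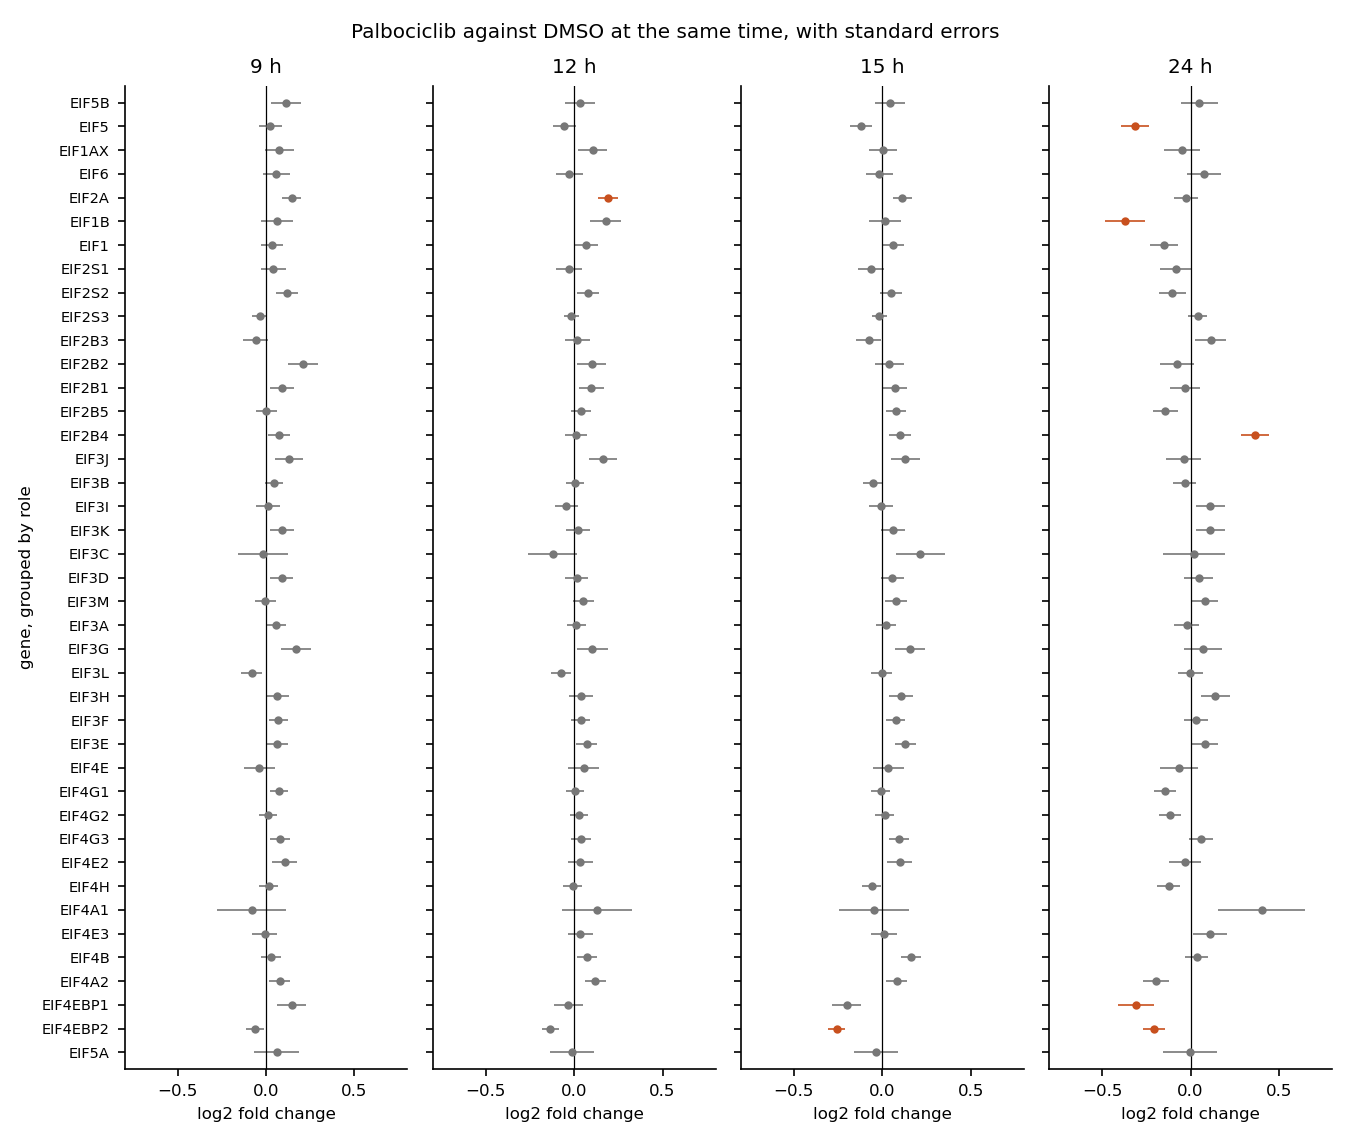
Log2 fold change of palbociclib against DMSO at 9, 12, 15 and 24 h (x axes) for each of the 41 genes (y axis, grouped by role), with bars of 1 standard error. Orange points passed an adjusted p below 0.05. They number 0, 1, 1 and 5, and every point lies within 0.5 of the zero line.

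Other genes of the translation pathway also moved in both directions. Of 31 regulators and partners of initiation, 14 rose and 11 fell by 3 h (62.2% of all genes called). The counts had become 16 and 12 by 6 h (73.5% of all genes called), and 17 and 9 by 24 h (75.6%). The 4 rises with the smallest adjusted p at 3 h were those of BZW1, a competitor of EIF5 (1.84 ± 0.061), EIF5A2, the second EIF5A gene (3.15 ± 0.13), EIF1AD (1.76 ± 0.074) and the helicase DDX3X (0.79 ± 0.052). The 4 falls with the smallest adjusted p at 6 h were those of PDCD4, an inhibitor of the eIF4A helicase (-1.97 ± 0.072), PAIP2B, an inhibitor of poly(A)-binding protein (-2.53 ± 0.15), PPP1R15A, the stress-induced partner of the eIF2 phosphatase (-1.27 ± 0.099), and EIF2D (-0.80 ± 0.062).

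Of the 13 listed elongation and termination genes 11 were tested (EEF1G and GSPT2 were not). Of these, 5 rose while 4 fell by 3 h (62.2% of all genes called), against 7 and 2 by 24 h (75.6%). The release factors ETF1 and GSPT1 rose by 1.29 ± 0.056 and 0.84 ± 0.055 at 3 h, and EEF2K, the kinase that inhibits elongation, fell by 0.66 ± 0.079. EEF2 and EEF1A1, the main elongation factors, were lower at 24 h (-0.73 ± 0.060 and -0.51 ± 0.075). Palbociclib at 24 h left 3 of the 31 lower, beside 12.3% of all genes. They were EIF2AK2, EIF4A3 and EIF2AK3, each lower by 0.30 to 0.31 on the log2 scale. The 31 differences ran from -0.31 to 0.21. Those of the 11 elongation and termination genes ran from -0.24 to 0.08.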

How the data were processed

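The authors deposited 1 table of raw read counts per gene name and library. Per the file headers they were made with featureCounts 1.5.1 on GENCODE 25 exons without a strand setting, leaving out multimapping and ambiguous reads. The submitters' processing notes name TopHat2 2.1.1, Bowtie2 2.2.9, FastQC 0.11.3 and Subread 1.5.1 with GRCh38.p7, and per the labels' protocols reads were 75 nt single-end. Without strand, reads of a gene and of an antisense partner cannot be told apart, and overlapping genes and near-identical copies lose reads.

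The deposited counts were fitted with edgeR 4.0.16 (R 4.3.3) by group over all 31 libraries (trimmed-mean scaling, filterByExpr, quasi-likelihood F tests, Benjamini-Hochberg over 15787 genes, called at an adjusted p below 0.05), with 20 residual degrees of freedom and a common biological variation of 6.55%. CPM use the scaled library totals, and the standard error is the log2 fold change divided by the square root of F. The fit was tested on simulated counts. No pair of libraries of a group was alike to sampling noise.

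All 41 members may be named. Of the other translation genes up to 4 per contrast and direction are, by smallest adjusted p. The members and lists were chosen with earlier results of these data known. Alternatives were DESeq2 1.42.0, other scalings, no filter, the contrast's own libraries, a replicate block, a covariate for the main axis within groups, and libraries left out. Replicate numbers were not used to pair libraries in the main fit. Between the starved and DMSO 3 h groups, deviations from the group mean correlated at 0.06, 0.39 and 0.36 for replicates 1, 2 and 3. Between the starved and palbociclib 15 h groups the correlations were -0.01, 0.10 and -0.40. In bulk RNA, fewer cells of a kind and less RNA per cell cannot be told apart. Sequences are from RefSeq (GRCh38.p14).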

Additional observations from a re-analysis of the deposited data

How the results depend on the processing

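Counts of members called against starved cells, from 3 to 6 h and from 6 to 15 h stayed within 1.5 times under every alternative, except lower calls at 3 h, 10 in the fit as reported, which were 5 with no filter on low counts and 3 in the fit on the contrast's own libraries. EIF4H at 3 h turned to -0.0412 with library totals in place of trimmed-mean scaling.

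Under palbociclib, the higher call at 12 h (1, EIF2A) became 0 with no filter and 0 without the 5 replicate 3 libraries of DMSO 24 h and all palbociclib groups. It ran from 0 to 1 with single libraries left out. Higher calls at 15 h (0) became 1 with DESeq2 size factors, 1 with DESeq2 and 1 with the within-group axis as covariate (EIF4B in each), and 2 with library totals (EIF2A and EIF4B), ranging from 0 to 3 with single libraries left out, the 3 without palbociclib 15 h replicate 1. Lower calls at 15 h (1) became 2 with the axis. Higher calls at 24 h ranged from 0 to 1. Lower calls at 24 h (4) became 8 with the axis, 1 without the 5 libraries (EIF5) and 2 in the fit on own libraries, ranging from 0 to 4. From 15 to 24 h in DMSO, the 6 higher calls became 3 without the 5 libraries, and the 4 lower calls became 1 with no filter and 2 without the 5 libraries, ranging from 1 to 4. The interaction between 9 and 15 h gained 1 lower call (EIF4EBP1) with the axis and 1 in the fit on own libraries.

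The replicate number of the labels, used as a replicate block, gave 1 higher call at 15 h (EIF4B) and 1 lower call in the interaction between 9 and 15 h (EIF4EBP1), and all 174 named calls kept their side of the threshold under it. The numbers share no stated source, and in 17 of 47 same-number pairs of compared groups the correlation of deviations passed 0.1 (from -0.40 to 0.42). With 2 libraries per group at 24 h, leaving out 1 leaves a lone library assumed to vary like the other groups. Genes of few assigned reads (EIF4A1, EIF3C) had standard errors up to 0.24 outside the interactions, against at most 0.15 for the other members.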
